A study of Homo sapiens with 4 samples.

Results

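The hypoxia-inducible factor (HIF) pathway was followed in RNA sequencing counts of FT190 cells through 10 genes: HIF1A, EPAS1 and ARNT, which encode the HIF subunits, EGLN1, EGLN3, VHL and HIF1AN, which encode the proteins that hold the HIF alpha subunits in check, and the hypoxia-induced targets CA9, BNIP3 and NDRG1. They were chosen by name, with earlier results of these data known. Each of the 10 matched exactly 1 of the 63241 gene rows of the deposited count table. All 10 were among the 18781 genes with enough counts to be tested. FT190, an established human cell line with an ovarian epithelial label, is usually described as immortalised secretory epithelium of the fallopian tube. Cells carrying the PLKO vector gave 2 control libraries, and cells with a short hairpin RNA that targets SMARCA4, an ATPase subunit of SWI/SNF (BAF) chromatin remodellers, gave 2 shSMARCA4 libraries. The labels give all 4 libraries a wild-type genotype, name 1 hairpin (SMARCA4_sh1), and describe culture in RPMI medium with serum, with no low-oxygen treatment named. Whether replicates were separate cultures is not given, so p-values reflect library-to-library spread that could be technical only.

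HIF-1 and HIF-2 are heterodimers of an oxygen-labile alpha subunit (HIF1A or EPAS1) and the stable partner ARNT. In oxygenated cells the EGLN prolyl hydroxylases mark the alpha subunits for capture by VHL, the substrate receptor of a ubiquitin ligase, and HIF1AN hydroxylates an asparagine that blocks coactivator binding. When oxygen falls, the alpha subunits persist, enter the nucleus and activate genes of glycolysis, pH control, mitophagy and angiogenesis. Control of the alpha subunits is thus largely at the protein level, which RNA counts do not measure.

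Total counts ranged from 27137414 to 33641343 per library, higher in both controls than in both shSMARCA4 libraries. Values below are in CPM, the counts per 1000000 counts of a library in the genes tested, scaled by trimmed means of M values. Where genes are compared with each other, values are in RPKM, the same per kilobase of transcript. SMARCA4 was at 171 and 162 CPM in the controls and at 34.0 and 36.3 CPM in the shSMARCA4 libraries, a log2 fold change of -2.24 (SE 0.052). Of the epithelial markers, KRT7, KRT8 and KRT18 were abundant and CDH1 lay between 3.41 and 4.70 CPM, while EPCAM and KRT19 were under 1 CPM in all 4 libraries. Of the tubal secretory markers, the transcription factor PAX8 lay between 57.4 and 63.5 CPM and WT1 between 13.8 and 18.4 CPM. OVGP1 and ESR1, from the same list, were under 1 CPM in all 4 libraries. The summed level of the 6 epithelial markers was 1673 to 1780 CPM in controls and 1180 to 1183 CPM in shSMARCA4 libraries. That of the 5 mesenchymal markers was 14054 to 14473 CPM in controls and 11395 to 11940 CPM in shSMARCA4 libraries, mostly from FN1. KRT7, KRT8, KRT18, VIM, FN1 and COL1A1 were lower in both shSMARCA4 libraries than in both controls. The groups overlapped for the epithelial CDH1 and the mesenchymal CDH2, so not every marker followed the sums. Mitochondrially encoded genes made up 4.06% of the counts of control 2 and 3.08 to 3.31% of those of the other libraries. The part of these differences in the results below was not tested. The 4 endothelial markers summed to at most 1.12 CPM and the 5 immune markers to at most 1.49 CPM in any library.

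Across the 10 genes, 7 fell in the shSMARCA4 libraries, 0 rose and 3 did not pass the test (quasi-likelihood test of edgeR, Benjamini-Hochberg adjusted p under 0.05 over all genes tested). Both targets with more than 10 CPM (BNIP3 and NDRG1), the inducible hydroxylase EGLN3 and the alpha subunit EPAS1 fell by 1.37-fold to 1.63-fold, CA9 fell by 2.64-fold from very low counts, and HIF1A and ARNT fell by less than 1.2-fold. The background was broad: 29.7% of all genes tested were called, 15.8% as lower and 13.8% as higher, and the median log2 fold change of the 10 genes was -0.33 beside -0.0045 over all genes tested. The groups did not overlap in 9 of the 10, beside 65.9% of all genes tested. CA9 reached the level of the low-count filter in the controls alone, which fixed its direction, and without it 6 of 9 genes fell and 8 of 9 did not overlap. The median of -0.33 includes CA9, and without CA9 the middle value was that of ARNT, -0.21. At an unadjusted p under 0.05 by edgeR, 1 of the 10, HIF1AN, was higher, and neither DESeq2 nor limma-voom called any of them higher. In these bulk samples, fewer cells expressing a gene and less of its RNA per cell cannot be told apart. The count of 7 was 4 with DESeq2, without a filter on low counts, without shSMARCA4 replicate 1 or without shSMARCA4 replicate 2. Among all calls, genes that rose made up 46.6%, and 59.5% when library totals alone set the scale.

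**Figure D1:**
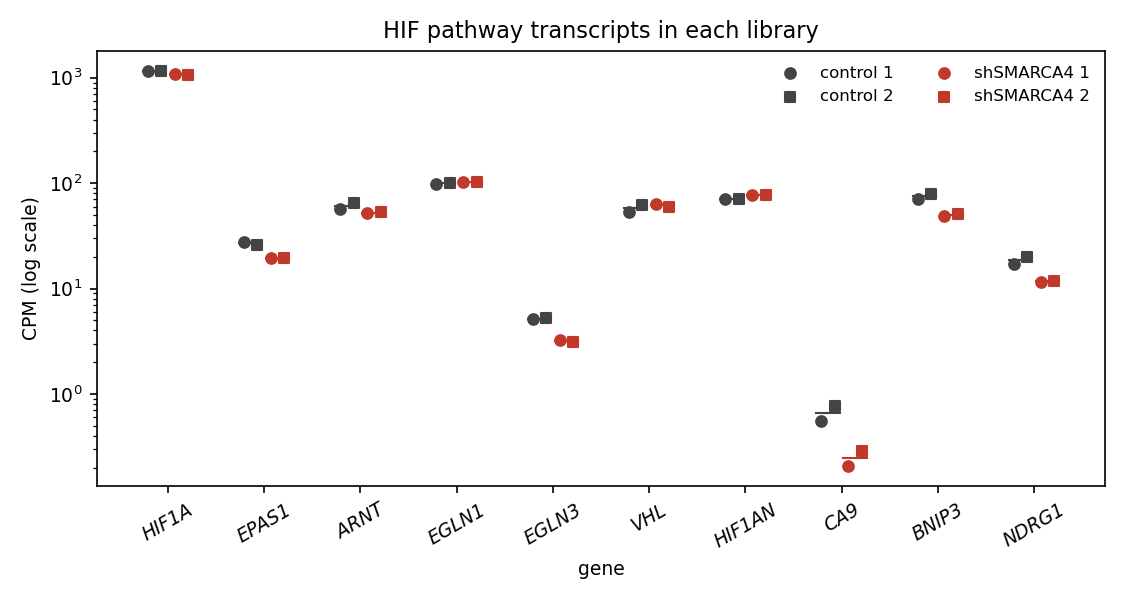
CPM of each HIF pathway gene (log axis) in the 2 control libraries (grey) and the 2 shSMARCA4 libraries (red), with short lines at the group means. HIF1A lies between 1072 and 1171 CPM and CA9 below 1 CPM, and the groups overlap for VHL alone.

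**Figure D2:**
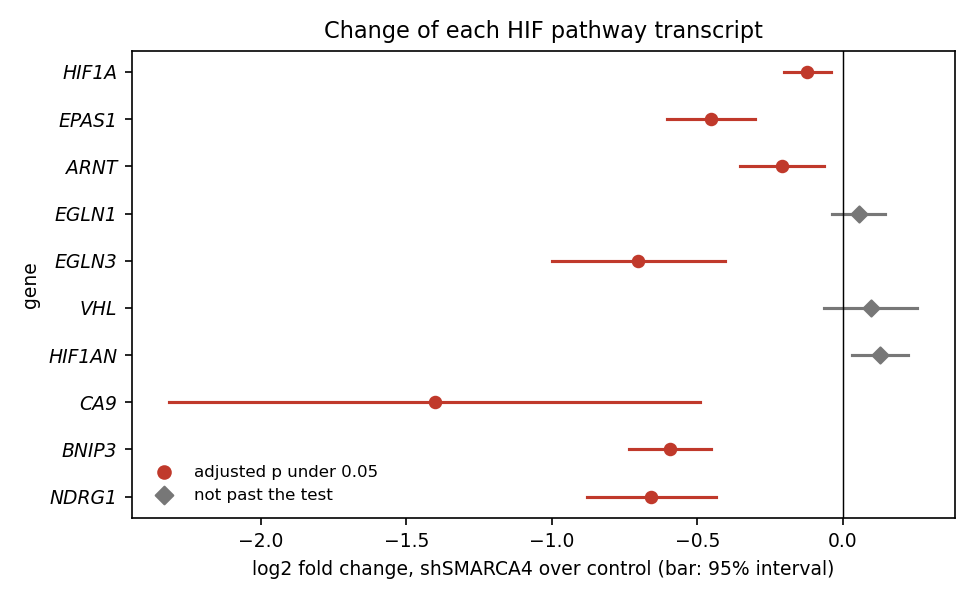
Log2 fold change of shSMARCA4 over control for each gene, with 95% intervals from the edgeR fit (n = 2 libraries per group). Red circles passed the test, and grey diamonds (EGLN1, VHL and HIF1AN) did not.

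HIF1A was by far the most abundant of the HIF subunit transcripts. It was measured at 1169 and 1171 CPM in the controls and at 1077 and 1072 CPM in the shSMARCA4 libraries. The 2 libraries of each group lay close together and the groups did not overlap. The fall was small, a log2 fold change of -0.12 (SE 0.036, 95% interval -0.20 to -0.04, adjusted p = 0.0311 by edgeR), and 65.0% of genes tested had a larger absolute change. The call was lost with library totals, with no filter on low counts, with DESeq2, and without shSMARCA4 replicate 1 (adjusted p = 0.323 by edgeR) or replicate 2 (adjusted p = 0.299). HIF1A (ENSG00000100644.17, hg38 chromosome 14, plus strand, 61695513 to 61748258) overlaps the antisense genes HIF1A-AS1 and HIF1A-AS3 and 2 unnamed long non-coding genes. Reads on both strands were counted, so reads of the antisense genes cannot be separated from its own. The antisense rows HIF1A-AS1 and HIF1A-AS3 held 554 to 770 and 1370 to 1813 counts. The largest overlapping row, ENSG00000258964, lies on the same strand as HIF1A. It held 1788 to 2449 counts against 29603 to 38356 for HIF1A, so reads may have been counted in both rows.

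EPAS1, which encodes HIF-2 alpha, fell more. It was at 27.7 and 25.9 CPM in the controls and at 19.6 CPM in both shSMARCA4 libraries. Both controls lay above both shSMARCA4 libraries, and the distance between the groups exceeded the spread within either. The log2 fold change was -0.45 (SE 0.067, 95% interval -0.60 to -0.30, adjusted p = 0.00113 by edgeR), a 1.37-fold lower level. This call held under all 12 alternative settings and left-out libraries that were run. Per kilobase, HIF1A was 55.3 and 59.0 times EPAS1 in controls against 72.0 and 71.6 times in shSMARCA4 libraries, so the alpha subunit transcripts stood further apart after the knockdown.

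ARNT, the shared beta subunit, was measured at 56.8 and 64.5 CPM in the controls and at 52.1 and 52.7 CPM in the shSMARCA4 libraries. The groups did not overlap, but the 2 controls differed from each other by more than control 1 differed from the shSMARCA4 libraries. The log2 fold change was -0.21 (SE 0.064, 95% interval -0.35 to -0.07, adjusted p = 0.0343 by edgeR). Without control replicate 2 it was -0.12 (adjusted p = 0.0913 by edgeR), and the call was also lost without either shSMARCA4 library, with library totals, with no filter and with DESeq2. Per kilobase, HIF1A was 21.6 to 24.6 times ARNT in every library, with overlapping groups.

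Among the other relatives of these subunits, HIF3A had 0 counts in all 4 libraries, which allows at most 3 counts, or 0.0915 to 0.109 CPM (counting error only). ARNT2, a second beta subunit, was at 27.1 and 25.2 CPM in the controls and at 28.0 CPM in both shSMARCA4 libraries, and did not pass the test (log2 fold change 0.10, 95% interval -0.05 to 0.24). BMAL1, a related protein best known as a core circadian clock factor, rose from 24.1 and 25.8 to 38.9 and 39.8 CPM, a log2 fold change of 0.66 (SE 0.060, adjusted p = 9.04e-05 by edgeR). Its paralog BMAL2 stood at 0.08 (95% interval -0.04 to 0.19) and did not pass the test. The value for BMAL2 was 0.14 without control replicate 1, in a fit that leaves 1 control. Of the 3 genes tested here, 1 rose and 0 fell, so 33.3% were called, beside 29.7% of all genes tested. The counts were the same with DESeq2 and limma-voom and at an unadjusted p under 0.05 by edgeR.

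The prolyl hydroxylases diverged. EGLN1 (also called PHD2), the main hydroxylase of HIF1A in oxygenated cells, was measured at 99.2 and 99.5 CPM in the controls and at 103 CPM in both shSMARCA4 libraries. The groups did not overlap but differed by little. Its log2 fold change of 0.05 (SE 0.041, 95% interval -0.04 to 0.15) missed the threshold (adjusted p = 0.367 by edgeR), and it passed under none of the 12 alternatives. EGLN1 shares its strand and much of its span with a protein-coding row without a symbol, ENSG00000287856, whose 2393 to 2793 counts stand beside 2854 to 3253 for EGLN1, so reads may have been counted in both rows.

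EGLN3 (also called PHD3), a hydroxylase whose gene is itself a HIF target, was measured at 5.12 and 5.24 CPM in the controls and at 3.24 and 3.12 CPM in the shSMARCA4 libraries. Both groups were tight and well separated, although these levels rest on 168 and 169 against 94 and 86 counts. The level was 1.63-fold lower, a log2 fold change of -0.70 (SE 0.13, 95% interval -1.0 to -0.40, adjusted p = 0.00402 by edgeR), and 8.85% of genes tested had a larger absolute change. The call held under all 12 alternatives. Per kilobase, EGLN1 was 12.1 and 11.8 times EGLN3 in the controls and 19.8 and 20.7 times in the shSMARCA4 libraries. The third family member, EGLN2, named after its values were seen, lay between 20.2 and 22.2 CPM in all 4 libraries, with overlapping groups (log2 fold change -0.06, 95% interval -0.22 to 0.10).

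VHL was measured at 53.2 and 61.8 CPM in the controls and at 63.1 and 59.7 CPM in the shSMARCA4 libraries. Its groups overlapped, the only such case among the 10 genes. The log2 fold change was 0.10 (SE 0.071, 95% interval -0.06 to 0.26, adjusted p = 0.351 by edgeR). Control replicate 1 decided much of it: the value was -0.0041 without that library and 0.21 without control replicate 2. Each of these fits leaves 1 control, so the spread between controls does not enter its error. An antisense long non-coding row at the 3' end of VHL held 690 to 805 counts, against 1649 to 1995 for VHL.

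HIF1AN, the asparaginyl hydroxylase, was measured at 70.8 and 70.5 CPM in the controls and at 77.1 and 77.2 CPM in the shSMARCA4 libraries. The groups were separated by many times the spread within them. Its log2 fold change of 0.13 (SE 0.043, 95% interval 0.03 to 0.22) fell just short of the test (adjusted p = 0.0526 by edgeR). It passed with upper-quartile factors, library totals, a 1 CPM filter or the replicate block. The value was 0.13 without control replicate 1 and 0.12 without control replicate 2, in fits that leave 1 control. It did not pass with DESeq2 or limma-voom.

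Of 16 other genes of oxygen sensing and HIF turnover, 2 rose and 1 fell, 18.8% against the background of 29.7%, and the list's median log2 fold change was -0.02. RBX1, the RING subunit of the VHL ligase, rose by 0.17 (SE 0.043), and the oxygen-sensitive histone demethylase KDM6A by 0.16 (SE 0.047). P4HTM, a transmembrane prolyl hydroxylase, fell by 0.35 on the log2 scale (SE 0.11), from 16.8 and 20.7 to 14 and 15.5 CPM. The 3 calls were lost with DESeq2, with no filter and without shSMARCA4 replicate 1, those of RBX1 and KDM6A also without shSMARCA4 replicate 2, and that of P4HTM with library totals and without control replicate 2, where its value was -0.19. The ligase subunits CUL2, ELOB and ELOC, named after their values were seen, did not pass the test.

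Of 11 tested genes from a list of HIF coactivators, repressors and related factors, 5 fell (45.5%, beside 15.8% of all genes tested) and 2 rose (18.2%, beside 13.8%), and the list's median log2 fold change was -0.19. SIRT1, a deacetylase reported to act on the alpha subunits, was at 69.0 and 66.2 CPM in the controls and at 45.2 and 44.3 CPM in the shSMARCA4 libraries, a log2 fold change of -0.60 (SE 0.049, adjusted p = 5.29e-05 by edgeR). The transcription factor CREB3L1 (-0.41, SE 0.043) and the pyruvate kinase PKM (-0.29, SE 0.036) also fell. The LIM-domain protein FHL2 (0.24, SE 0.056) and the repressor BHLHE41 (0.39, SE 0.12) rose. Both rises were lost with no filter on low counts, and that of BHLHE41 with DESeq2. The controls decided much of the BHLHE41 value, which was 0.18 without control replicate 1 and 0.62 without control replicate 2.

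BNIP3 is a mitophagy receptor of the outer mitochondrial membrane and a classical HIF-1 target. It was measured at 70.5 and 79.2 CPM in the controls and at 48.6 and 50.5 CPM in the shSMARCA4 libraries. Control 1 lay below control 2, but both lay well above the shSMARCA4 libraries. The level was 1.51-fold lower, a log2 fold change of -0.59 (SE 0.062, 95% interval -0.74 to -0.45, adjusted p = 1.97e-04 by edgeR), the smallest adjusted p of the 10 genes. It held under all 12 alternatives, between -0.67 and -0.51. The table also holds 44 BNIP3 pseudogene rows, whose 21 to 28 counts per library summed to at most 1.70% of the BNIP3 count.

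NDRG1, a cytoplasmic protein induced by hypoxia and other stresses, was measured at 17 and 20.1 CPM in the controls and at 11.6 and 11.9 CPM in the shSMARCA4 libraries. The pattern resembled that of BNIP3, with control 2 highest and the shSMARCA4 libraries close together. Its log2 fold change was -0.66 (SE 0.098, 95% interval -0.88 to -0.44, adjusted p = 0.00121 by edgeR), and 10.1% of genes tested had a larger absolute change. The ratio of BNIP3 to NDRG1 per kilobase was 10.1 and 9.59 in controls against 10.2 and 10.3 in shSMARCA4 libraries. An unnamed long non-coding row overlaps its 3' end on the same strand, with 63 to 137 counts against 328 to 648.

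CA9, a cell-surface carbonic anhydrase and a widely used hypoxia marker, was barely detected. It had 18 and 25 counts in the controls, 6 and 8 in shSMARCA4 libraries, or 0.549 and 0.775 against 0.207 and 0.290 CPM. The groups did not overlap, but only the controls reached the level of the filter on low counts, so a gene that passed in this way had to be lower in the other group. The log2 fold change was -1.40 with a wide error (SE 0.40, 95% interval -2.31 to -0.49, adjusted p = 0.0282 by edgeR). The call was lost with no filter, without control replicate 2 (-1.14) and without either shSMARCA4 library, and DESeq2 gave no adjusted p.

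**Figure D3:**
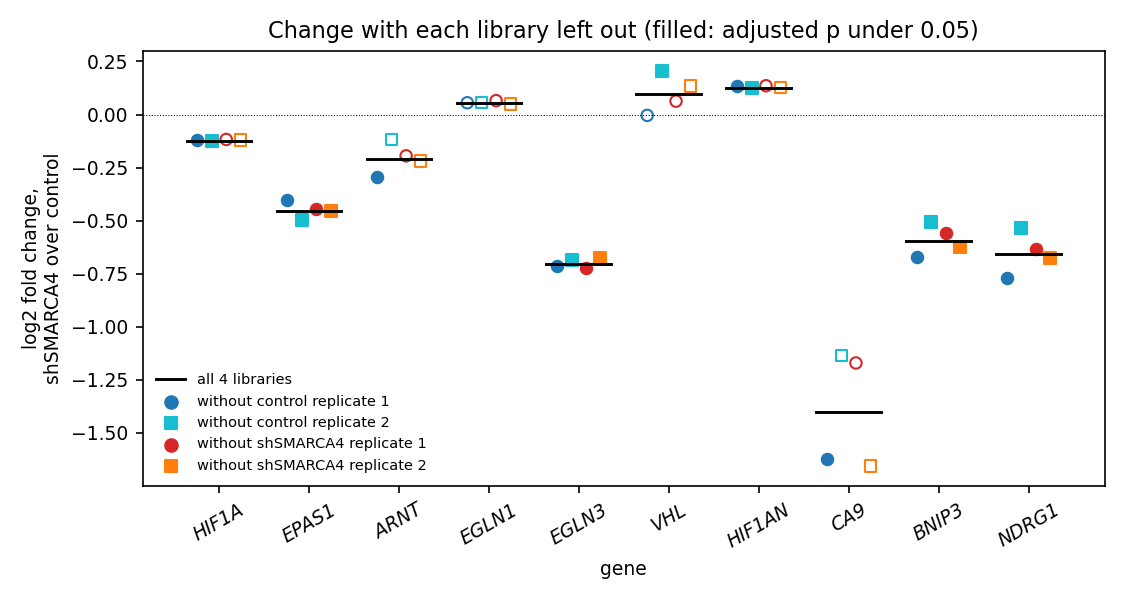
Log2 fold change of each gene with all 4 libraries (black lines) and with each library left out in turn, filled where adjusted p was under 0.05 by edgeR. EPAS1, EGLN3, BNIP3 and NDRG1 stay below 0 and past the test in every case, whereas VHL moves from -0.0041 to 0.21.

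HIF dimers bind a short core sequence, ACGTG or GCGTG, in their target genes. RefSeq promoter windows (GRCh38.p14, 250 bases before to 50 after the start) were found for 8 of the 10 genes (2 windows for HIF1A) and searched on both strands for these 5-base cores. ACGTG occurred in 3 of the 8 (BNIP3, CA9 and EGLN1) and in 21.4% of 35116 promoter windows, and GCGTG in 3 (BNIP3, HIF1A and EPAS1) and in 36.5%. The BNIP3 window held ACGTG on both strands at 1 palindromic site and GCGTG 4 times. The following 30-base stretches, read 5' to 3' on the strand of the gene, show the ACGTG cores of BNIP3, CA9 and EGLN1. BNIP3 fell, the low-count filter fixed the direction of CA9, and EGLN1 did not pass the test. Capitals mark the core, as CACGT where it lies on the opposite strand.
BNIP3: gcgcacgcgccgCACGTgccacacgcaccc
CA9: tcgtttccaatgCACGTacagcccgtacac
EGLN1: ccgcggggccgtggtgtACGTGcagagcgc
The stretches lie at chr10:131982040-131982069 (minus strand), chr9:35673898-35673927 (plus strand) and chr1:231422288-231422317 (minus strand). The core begins 134 bases before the start in BNIP3, 18 before it in CA9 and 13 before it in EGLN1 (positions -134, -18 and -13). The windows of ARNT, EGLN3 and HIF1AN held neither core. A core is a match of letters, not a measured binding site, and none of these libraries measured HIF binding.

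Of 39 other hypoxia targets outside glycolysis, 11 fell (28.2%, beside 15.8% of all genes tested) and 6 rose (15.4%, beside 13.8%), and the list's median log2 fold change was -0.08. DPYSL4, named after its values were seen, is 1 of the 6 and reached the level of the low-count filter in the shSMARCA4 libraries alone, which fixed its direction, so 5 of the other 38 rose. LOX, the collagen cross-linking enzyme, fell from 77 and 78.6 to 30.7 and 29.3 CPM (log2 fold change -1.38, SE 0.050, adjusted p = 1.40e-06 by edgeR). The glycogen branching enzyme GBE1 fell by 0.52 on the log2 scale (SE 0.044). ANGPTL4, a secreted inhibitor of lipoprotein lipase, rose from 1.71 and 2.23 to 15 and 15.3 CPM (log2 fold change 2.94, SE 0.13, adjusted p = 3.04e-06 by edgeR), and the haem oxygenase HMOX1 (0.52, SE 0.11) rose by less. Counts for this list were 3 higher with DESeq2 or with no filter, and 7 lower with no filter.

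Glycolytic hypoxia targets mostly fell. Of 21 tested, 15 fell (71.4%, beside 15.8% of all genes tested) and 2 rose (9.52%, beside 13.8%), and the list's median log2 fold change was -0.35. The number that fell lay between 14 and 17 under the 12 alternatives. The enolase ENO2 was at 95.5 and 104 CPM in the controls and at 44.3 and 45.8 CPM in the shSMARCA4 libraries. PDK1, the kinase that turns off pyruvate dehydrogenase, went from 32.3 and 35.6 to 19.8 and 20.1 CPM, and the aldolase ALDOA from 638 and 653 to 466 and 469 CPM. The brain-type aldolase ALDOC had the largest change of the list, a log2 fold change of -1.53 (SE 0.25), at 2.01 and 2.6 against 0.690 and 0.906 CPM. The glucose transporters SLC2A3 (0.49, SE 0.081) and SLC2A1 (0.17, SE 0.041) rose, the latter not without shSMARCA4 replicate 1, without shSMARCA4 replicate 2 or with no filter.

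**Figure D4:**
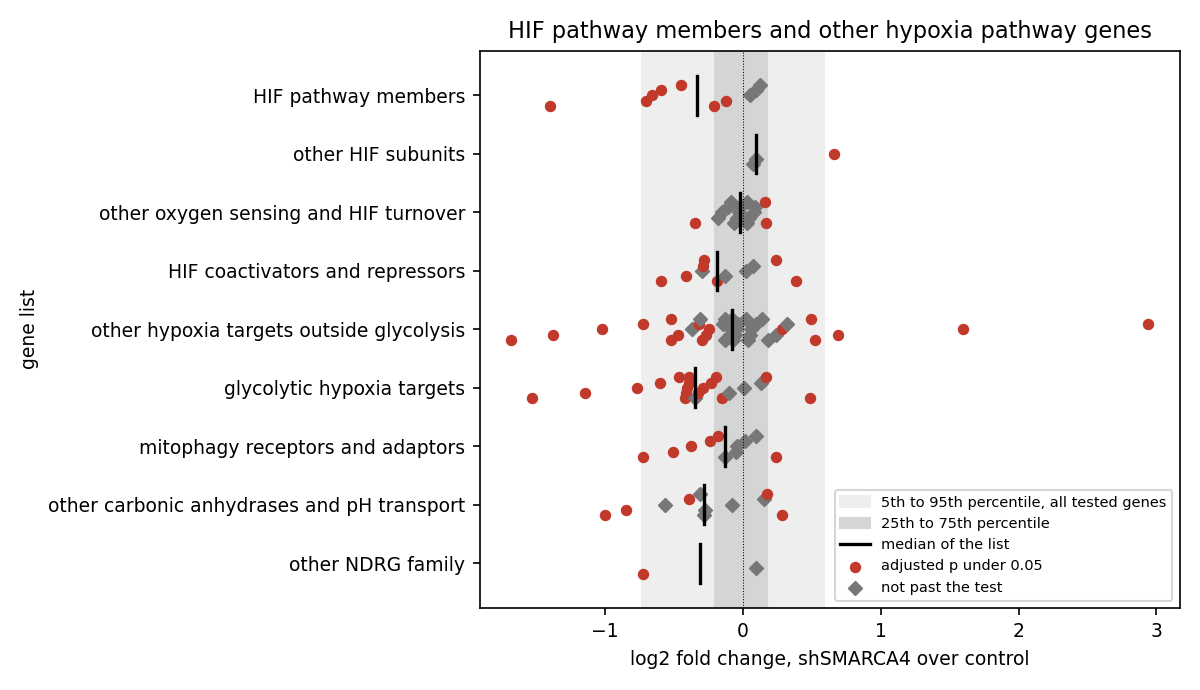
Log2 fold changes of the tested genes of each list (red circles past the test, grey diamonds not), with list medians as black bars and the spread of all tested genes as grey bands. The glycolytic targets have a median of -0.35, the other hypoxia targets one of -0.08 with ANGPTL4 at 2.94.

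The families of the 3 targets were read in the same way. BNIP3L, CA12 and SLC16A3 were in 2 lists each and were counted in both, so the lists are not separate sets of genes. Of 11 other mitophagy receptors and adaptors, 5 fell (45.5%, beside 15.8% of all genes tested) and 1 rose (9.09%, beside 13.8%), and the list's median log2 fold change was -0.13. BNIP3L (also called NIX), the closest relative of BNIP3, was at 75.5 and 89.4 CPM in the controls and at 46.7 and 53.2 CPM in the shSMARCA4 libraries, a log2 fold change of -0.72 (SE 0.086, adjusted p = 3.73e-04 by edgeR). Like HIF1A, ARNT, EGLN3, CA9, BNIP3 and NDRG1, it was highest in control 2, the library with the largest mitochondrial share, and separated the groups. For HIF1A and EGLN3 the 2 controls were nearly equal, and EPAS1 was highest in control 1. Whether the mitochondrial share bears on the level of BNIP3L was not tested. The mitochondrial kinase PINK1 (-0.51, SE 0.045) and the autophagy adaptor SQSTM1 (-0.37, SE 0.045) fell, and the receptor BCL2L13 (0.24, SE 0.041) rose. The number that fell was 3 without shSMARCA4 replicate 1 and with no filter.

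Of 11 other genes of carbonic anhydrases and pH transport, 3 fell (27.3%, beside 15.8% of all genes tested) and 2 rose (18.2%, beside 13.8%), and the list's median log2 fold change was -0.28. The bicarbonate cotransporter SLC4A4 fell from 9.85 and 9.33 to 5.07 and 4.49 CPM (log2 fold change -1.0, SE 0.11, adjusted p = 3.13e-04 by edgeR). The lactate exporter SLC16A3 (-0.39, SE 0.045) and CA8 (-0.85, SE 0.25), a carbonic anhydrase relative without enzyme activity, also fell, CA8 from 1.28 and 1.33 CPM to 0.725 CPM in both shSMARCA4 libraries. The monocarboxylate transporter SLC16A1 (0.29, SE 0.046) and the bicarbonate transporter SLC4A7 (0.17, SE 0.050) rose. The calls of CA8 and SLC4A7 were lost with DESeq2, with no filter and without either shSMARCA4 library, and that of CA8 without control replicate 2. The number that fell was 5 without control replicate 1. CA12, the other membrane-bound isoform induced by hypoxia, named after its values were seen, was at 2.71 and 3.81 CPM in the controls and at 2.86 and 2.39 CPM in the shSMARCA4 libraries, with overlapping groups.

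In the NDRG family, NDRG2 fell from 4.66 and 4.40 to 2.49 and 3.01 CPM (log2 fold change -0.72, SE 0.15, adjusted p = 0.00705 by edgeR). NDRG3 was at 47.1 and 47.6 CPM in the controls and at 51.0 and 50.2 CPM in the shSMARCA4 libraries, without passing the test (log2 fold change 0.10, 95% interval -0.01 to 0.20), though it passed with library totals. NDRG4 had 5 to 11 counts per library and was not tested.

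Per kilobase, the order of the 10 genes in the controls was HIF1A (299 RPKM), BNIP3 (48.9), EGLN1 (23.0), ARNT (13), VHL (12.7), HIF1AN (5.47), EPAS1 (5.23), NDRG1 (4.98), EGLN3 (1.92) and CA9 (0.434). The ranges of the 2 controls overlapped for ARNT and VHL, and that of NDRG1 overlapped that of EPAS1. In the shSMARCA4 libraries VHL (13.6 RPKM) lay above ARNT (11.2 RPKM) in both libraries, and the other neighbours kept their order. The lengths are those of the 1 transcript that the deposited table keeps per gene, which for HIF1AN is 12912 bases, and other transcripts were not counted.

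The genes whose profiles over the 4 libraries were nearest to those of the 2 genes with the smallest adjusted p were sought among 10870 protein-coding genes averaging 5 CPM or more, as the Euclidean distance between centred log2 values. Nearest to BNIP3 were MYO18A (distance 0.033), TMEM132A (0.034) and GOLPH3L (0.037). Nearest to EPAS1 was LASP1 (0.0076). Over 4 libraries such nearness is a description of these profiles alone.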

How the data were processed

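Whole-number counts per gene were deposited by the authors for 4 libraries, made with the analyzeRepeats program of HOMER from hg38 alignments and exons of GENCODE release 45, on both strands, with 1 transcript per gene and without normalization, per the file headers. The header command names 6 libraries, and the 4 with value columns were used. STAR 2.6.1c and DESeq2 1.19.38 are also named, per the submitters' processing notes. Transcript lengths are those of the deposited table.

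The edgeR function filterByExpr (count minimum 10) removed 44460 rows. Scaling factors (trimmed means of M values), tests (glmQLFit and glmQLFTest, two-sided) and adjustment over all genes tested were run with edgeR 4.0.16 in R 4.3.3. A standard error is the absolute log2 fold change over the square root of F. The biological coefficient of variation was 0.041. The fit was also run on simulated data, whose outcome is not reported here and was not used for any call. Alternatives used DESeq2 1.42.0, limma-voom (limma 3.58.1), other scaling, other filters, the replicate block and leaving out each library. An exact permutation test of 2 against 2 libraries cannot go below p = 0.333, so none was run. The 2 controls differed by more than counting noise (6.33, chi-square over its degrees of freedom), as did the 2 shSMARCA4 libraries (1.88), so none was taken for a library deposited again. This does not show that they came from separate cultures.

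The 10 genes and the other lists were chosen with earlier results of these data known. Named beyond the 10 were, per list, up to 3 genes in each direction with the smallest adjusted p and the gene with the largest change, and every gene of lists of 4 or fewer. Likeness used log2(CPM + 0.5). A few genes that these rules pick are not reported here.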

Additional observations from a re-analysis of the deposited data

How the results depend on the processing

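The falls of EPAS1, EGLN3, BNIP3, NDRG1 and SMARCA4 kept their direction and their call under all 12 alternatives, and EGLN1 passed under none. With DESeq2, 1625 genes rose and 1930 fell, 4 of the 10 HIF pathway genes fell, and HIF1A (-0.12) and ARNT (-0.21) did not pass. The counts were then 0 higher and 0 lower for oxygen sensing and turnover, and 1 higher for coactivators, 3 higher for other hypoxia targets and 1 higher for pH transport. With no filter on low counts, 1403 genes rose and 1784 fell, 4 of the 10 fell, and HIF1A (-0.12), ARNT (-0.21) and CA9 (-1.40) did not pass. That setting gave 0 higher and 0 lower for turnover, 0 higher for coactivators, 3 higher and 7 lower for other targets, 1 higher for glycolytic targets, 3 lower for mitophagy and 1 higher for pH transport. It tested 35109 genes in place of 18781. With library totals only, HIF1A (-0.073) and ARNT (-0.16) did not pass, HIF1AN (0.18) passed, 1 of the 10 rose, turnover had 0 lower and the NDRG family 1 higher, and the median of all genes was 0.04. HIF1AN also passed, as the 1 gene of the 10 that rose, with upper-quartile factors (0.14), a 1 CPM filter (0.13) and the replicate block (0.13). Turnover had 2 lower with limma-voom. CA9 did not pass the 1 CPM filter and had no adjusted p with DESeq2. Beyond what these settings do to the scale or to the genes tested, the cause was not tested.

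The titles number the libraries 1 and 2 in both groups, but the numbers alone do not pair the samples. The correlation of same-numbered deviations was 0.27 over genes. With 2 libraries per group, crossed numbers give the same size with the opposite sign, so this value cannot decide whether the libraries were paired. With the replicate block, 6749 genes were called in place of 5572, HIF1AN rose (0.13), 1 of the 10 was higher, and turnover had 3 lower.

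Leaving out each library in turn gave 1724 to 3618 genes higher, 0 to 2 of the 10 higher and 4 to 7 lower. The ranges were 1 to 2 higher for other HIF subunits, 0 to 2 higher and 0 to 4 lower for turnover, 1 to 3 higher for glycolytic targets, 3 to 6 lower for mitophagy, and 1 to 3 higher and 2 to 5 lower for pH transport. HIF1A ranged from -0.122 to -0.118, ARNT from -0.295 to -0.12, VHL from -0.0041 to 0.21, HIF1AN from 0.12 to 0.14 and CA9 from -1.66 to -1.14. Such fits leave 1 library in a group, assumed to vary like the other group. Depth limits CA9, with 6 to 25 counts per library.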

Other observations

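The hypoxia-related genes below were chosen after their values were seen. ADM, which encodes the vasodilator peptide adrenomedullin, was at 5.55 and 5.11 CPM in controls and at 2.52 and 2.72 CPM in the shSMARCA4 libraries, a log2 fold change of -1.03 (SE 0.14, adjusted p = 7.98e-04 by edgeR). MIR210HG, the host transcript of the hypoxia-induced microRNA miR-210, fell from 1.83 and 3.07 to 0.552 and 0.978 CPM (log2 fold change -1.68, SE 0.34, adjusted p = 0.00596 by edgeR), and both calls held under all 12 alternatives. VEGFA, the angiogenic growth factor, was at 64.6 and 77.6 CPM in controls and at 82.1 and 90.7 CPM in the shSMARCA4 libraries, a rise of 0.28 on the log2 scale (SE 0.083, adjusted p = 0.0309 by edgeR) that was 0.16 without control replicate 1 and was lost without shSMARCA4 replicate 2 and with no filter.

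The paralogous HIF coactivators were unequal in these libraries. CREBBP was at 91.2 and 89.6 CPM in controls and at 80.0 and 78.8 CPM in the shSMARCA4 libraries (log2 fold change -0.19, SE 0.043, adjusted p = 0.0103 by edgeR), but not with DESeq2, without a filter or without either shSMARCA4 library. EP300 was at 131 and 129 CPM in controls and at 138 and 137 CPM in the shSMARCA4 libraries and did not pass the test (0.08, SE 0.040), though it passed with library totals. CITED2, which competes with HIF alpha subunits for these coactivators and is itself a HIF target, fell from 227 and 206 to 181 and 176 CPM (log2 fold change -0.28, SE 0.051, adjusted p = 0.00350 by edgeR), under all 12 alternatives.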
